A study of Mus musculus with 6 samples.

Results

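The 6 genes described here encode transcription factors of the Bach family (Bach1 and Bach2) and the Ikaros family (Ikzf1, Ikzf2, Ikzf3 and Ikzf5), and they were found by gene name among the 55487 genes of the deposited expression table. They were chosen because Bach2 had one of the largest falls between Tespa1-/- and Tespa1+/+ cells, so their differences between the genotypes are given as a description. No p is printed for them, and a call on one of them is not evidence for its difference. The cells were LSKs, the Lin- Sca-1+ c-Kit+ fraction of bone marrow that holds hematopoietic stem cells and multipotent progenitors. They came from male mice of 8 to 10 weeks, backcrossed to C57BL/6, at day 13 after total body irradiation with 5.0 Gy, in both genotypes. There were 3 libraries from wild-type littermates (Tespa1+/+) and 3 from Tespa1 knockout mice (Tespa1-/-). Whether a library came from 1 mouse or from a pool was not stated, so the spread between libraries may be partly technical.

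Bach proteins are basic leucine zipper repressors that pair with small Maf proteins. Bach1 is released from DNA by heme and holds down genes of heme and iron handling, and Bach2 is best known for restraining Prdm1 in B cells and myeloid genes in lymphoid progenitors. Ikaros family proteins are zinc finger factors that work with the NuRD and Sin3 corepressors. Ikzf1 (Ikaros) primes early progenitors for the lymphoid lineages, Ikzf2 (Helios) is found in stem cells and regulatory T cells, Ikzf3 (Aiolos) acts later in B and T cells, and Ikzf5 (Pegasus) is a more distant relative.

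For the 2 genes with the lowest Tespa1-/- to Tespa1+/+ ratios, the 250 bases before their RefSeq starts are printed (GRCm38.p6, plus strand, 5′ to 3′). Each GGGAA, the short core bound by Ikaros, is in capitals on either strand (TTCCC on the opposite one). The Bach2 window lies at chr4:32417185-32417434, the Ikzf1 window 1 at chr11:11685675-11685924 and the Ikzf1 window 2 at chr11:11689927-11690176. All 3 lie within the annotated span of their gene and hold no annotated exon base. The annotated start of Bach2 is at 32238804, far before its window, so that window precedes a RefSeq start inside the gene. The bases just after the start were found in an annotated transcript for Bach2 and Ikzf1 window 1, but not for Ikzf1 window 2.
Bach2: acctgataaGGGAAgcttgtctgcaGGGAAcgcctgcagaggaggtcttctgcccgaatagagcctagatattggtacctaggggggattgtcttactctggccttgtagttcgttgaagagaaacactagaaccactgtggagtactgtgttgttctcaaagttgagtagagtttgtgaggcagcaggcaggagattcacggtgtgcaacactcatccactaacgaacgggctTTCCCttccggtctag
Ikzf1 window 1: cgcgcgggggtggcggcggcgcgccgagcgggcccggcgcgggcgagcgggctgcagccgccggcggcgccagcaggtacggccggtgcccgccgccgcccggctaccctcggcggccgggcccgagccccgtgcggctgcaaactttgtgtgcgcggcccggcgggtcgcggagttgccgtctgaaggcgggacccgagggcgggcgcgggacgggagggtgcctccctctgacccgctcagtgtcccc
Ikzf1 window 2: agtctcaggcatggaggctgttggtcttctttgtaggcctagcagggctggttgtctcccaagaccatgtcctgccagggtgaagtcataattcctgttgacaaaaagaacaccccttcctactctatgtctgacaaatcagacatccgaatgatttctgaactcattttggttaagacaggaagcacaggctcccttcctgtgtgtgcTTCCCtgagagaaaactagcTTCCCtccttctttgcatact
GGGAA occurred 3 times in the Bach2 window, 0 times in the first and 2 times in the second Ikzf1 window, and 56.2% of the 32851 RefSeq windows of this length held it. The first Ikzf1 window was rich in G and C (82%), against 50.4% for Bach2 and 47.6% for the second Ikzf1 window. The Bach1 window held no GGGAA and the Ikzf5 window held 1. The longer Ikaros core TGGGAA, which contains GGGAA and was in 21.6% of all windows, was in none of these 5 windows. The AP-1 core TGANTCA (6.75% of all windows) and the site TGACNNNGC of CNC and small Maf dimers (10.2%) were in none of them either, searched on both strands. Windows for Ikzf2 and Ikzf3 were not used here.

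Total counts ranged from 14344753 to 30576981 in the Tespa1+/+ libraries and from 12856630 to 17684702 in the Tespa1-/- libraries. The targeted gene, Tespa1, was at 34.4 ± 1.62 CPM (TMM-normalised read counts on a common library size, SD, n = 3) in Tespa1+/+ and at 14.6 ± 0.634 CPM (SD, n = 3) in Tespa1-/- LSKs, a log2 fold change of -1.23 (SE 0.07), so its transcripts were reduced but still counted. Fold changes here are Tespa1-/- over Tespa1+/+, and a gene was called when its edgeR adjusted p was under 0.05 and its fold over 1.5. Longer genes had lower fold changes: over 10033 genes, the rank correlation (Spearman's rho) of log2 fold change with the length of all annotated exons merged (union exon length) was -0.62, a description over genes that share 6 libraries. A second value corrected for this length trend is therefore given for each member.

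All 6 members passed the filter on low counts, and 3 of 6, Bach2, Ikzf1 and Ikzf2, were called lower. Over all 15332 genes tested, 19.2% were called lower and 14.0% higher, and because the genes were chosen from this contrast nothing is read from the difference. The libraries of the genotypes did not overlap for 4 of 6 members, each time with Tespa1-/- below, as held for 34.6% of the genes tested. With a correction for gene length the same 3 were called lower, against 15.3% of all genes called lower and 8.04% called higher. In bulk RNA, fewer cells that express a gene and less RNA per cell cannot be told apart.

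**Figure D1:**
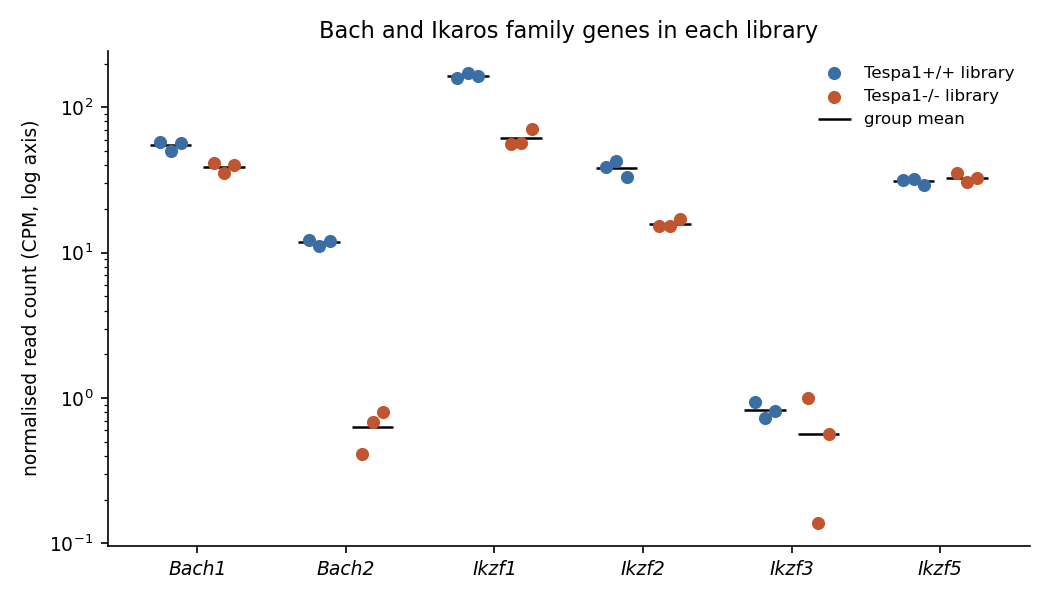
Normalised read counts (CPM, log axis) of the 6 genes, with 1 point per library and a line at each group mean (3 libraries per group). For Bach2, the Tespa1-/- points lie at 0.411 to 0.806 CPM and the Tespa1+/+ points at 11.1 to 12.3 CPM, whereas the points of Ikzf3 and Ikzf5 overlap.

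Bach2, the repressor that keeps lymphoid progenitors from plasma cell and myeloid programs, had by far the lowest ratio of the 6 genes. The gene (ENSMUSG00000040270, GRCm38 chromosome 4, 32238804 to 32586108) was at 12.3, 11.1 and 12.0 CPM in the Tespa1+/+ libraries, from counts of 223, 352 and 178. In the Tespa1-/- libraries it was at 0.411, 0.689 and 0.806 CPM, from counts of 7, 10 and 10. Every Tespa1-/- library was far below every Tespa1+/+ library, although a few reads were left in each. The means were 11.8 ± 0.590 and 0.635 ± 0.203 CPM (SD, n = 3 each), and the log2 fold change was -4.24 (SE 0.19, 95% interval -4.68 to -3.80), which is 18.9-fold lower. Only 22 of the 15332 genes tested had a lower log2 fold change, and with the length correction the value was -3.78 (SE 0.19). An antisense gene, Bach2os, covers 5.4% of the Bach2 exon bases and had at most 4 counts in a library.

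Bach1, the heme-regulated member of the family, differed less. It lies on chromosome 16 (ENSMUSG00000025612, 87698945 to 87733346) and was at 57.8, 49.9 and 57.1 CPM in Tespa1+/+ libraries and at 41.2, 35.5 and 39.9 CPM in Tespa1-/- libraries. The genotypes did not overlap, with the second Tespa1+/+ library nearest to the Tespa1-/- libraries. The log2 fold change of -0.50 (SE 0.08, 95% interval -0.69 to -0.30), a 1.41-fold difference, did not reach the fold of 1.5, and 24.7% of all genes tested were lower still. With the length correction it was -0.27 (SE 0.08). Per kilobase of union exon, Bach1 exceeded Bach2 by 7.57, 7.20 and 7.65 times in the Tespa1+/+ libraries and by 161.1, 83.0 and 79.6 times in the Tespa1-/- libraries, where the Bach2 side rests on 10 counts or fewer.

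Ikzf1, which encodes Ikaros, was the most abundant of the 6 genes and fell 2.71-fold. The gene (ENSMUSG00000018654, chromosome 11, 11685003 to 11772926) was at 159.8, 171.5 and 164.2 CPM in Tespa1+/+ libraries. It was at 56.0, 56.8 and 70.6 CPM in Tespa1-/- libraries. The third Tespa1-/- library was above the other two and still far under all Tespa1+/+ libraries. The log2 fold change was -1.44 (SE 0.09, 95% interval -1.65 to -1.22), lower than for all but 5.36% of the genes tested, and -1.24 (SE 0.09) with the length correction.

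Ikzf2, which encodes Helios, fell 2.42-fold. It lies on the minus strand of chromosome 1 (ENSMUSG00000025997, 69531214 to 69687245) and was at 38.6, 42.5 and 33.2 CPM in Tespa1+/+ and at 15.2, 15.2 and 16.9 CPM in Tespa1-/- libraries. The Tespa1-/- libraries lay close together and below all Tespa1+/+ libraries. The log2 fold change was -1.28 (SE 0.10, 95% interval -1.52 to -1.03). Among the 6 genes Ikzf2 has the longest union exon length, 11613 bases, and the length correction moved its value to -0.74 (SE 0.10), which was still called. The antisense gene Gm29114 shares 1.24% of its exon bases and had 2 counts in 1 Tespa1+/+ library and 0 elsewhere.

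Ikzf3, which encodes the later-acting Aiolos, was barely counted in these cells. On chromosome 11 (ENSMUSG00000018168, 98464902 to 98546031), its counts were 17, 23 and 12 in the Tespa1+/+ libraries and 17, 2 and 7 in the Tespa1-/- libraries, or 0.936, 0.728 and 0.809 against 0.998, 0.138 and 0.565 CPM. The Tespa1-/- libraries spanned the whole Tespa1+/+ range, the first being the highest of all 6 and the second the lowest. The log2 fold change was -0.47 (SE 0.51) with a 95% interval from -1.67 to 0.74, so neither a clear fall nor a rise was detectable at this depth, and with the length correction it was -0.08 (SE 0.51). The uncorrected value was -1.25 without the first Tespa1-/- library and -0.01 without the second.

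Ikzf5, which encodes Pegasus, was not called, and its difference was the smallest of the 6 only without the length correction, with which that of Ikzf3 was smaller. The gene (ENSMUSG00000040167, chromosome 7, 131388652 to 131410521) was at 31.6, 32.1 and 29.1 CPM in Tespa1+/+ and at 35.3, 30.4 and 32.7 CPM in Tespa1-/- libraries. The groups overlapped, and the log2 fold change was 0.09 (SE 0.07, 95% interval -0.09 to 0.26), or 0.27 (SE 0.07) with the length correction. Of its exon bases, 81.3% are shared with Pstk on the opposite strand, which was itself not called (log2 fold change 0.18, SE 0.13). Because the strand setting of the counting was not stated, the counts of Ikzf5 are uncertain.

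**Figure D2:**
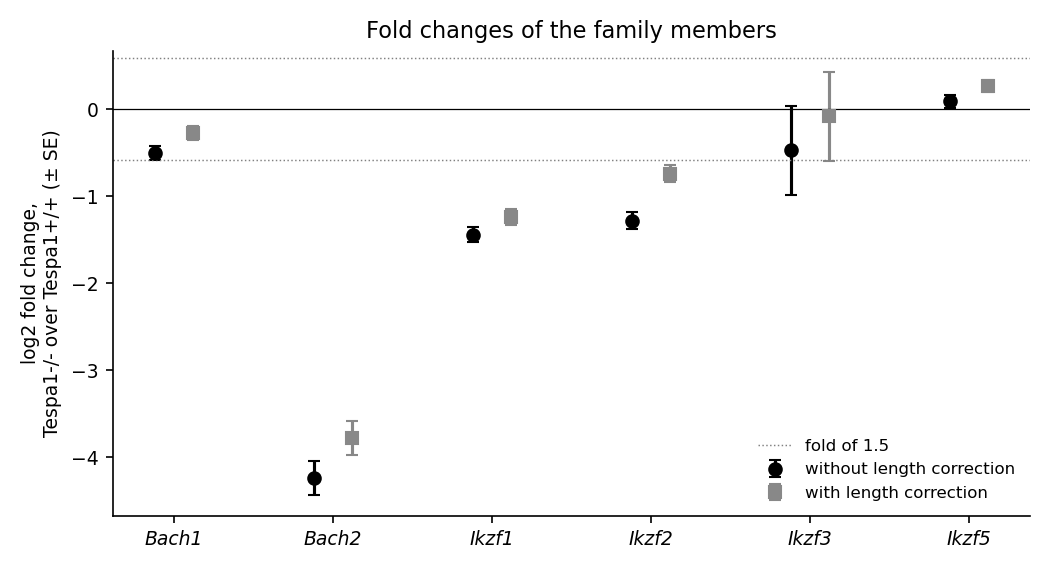
Log2 fold changes of the 6 genes (Tespa1-/- over Tespa1+/+, bars are SE, 3 libraries per group) without and with the length correction, with dotted lines at a fold of 1.5. Bach2, Ikzf1 and Ikzf2 lie below the lower line in both, Bach1 lies inside it at -0.50 and -0.27, and Ikzf3 has the widest bar.

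**Figure D3:**
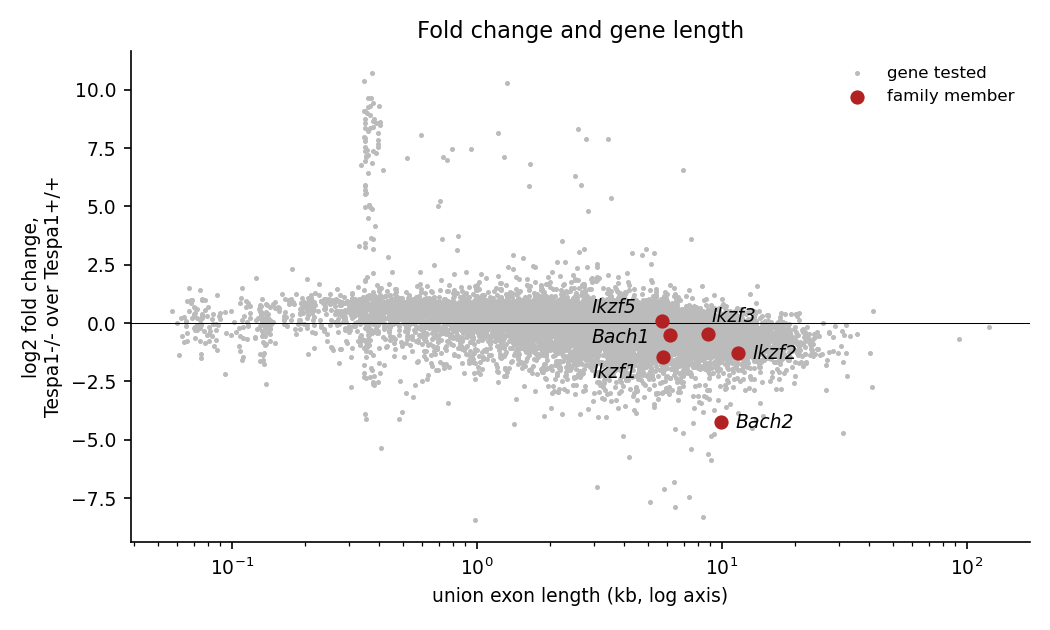
Log2 fold change of every gene tested with a known length against its union exon length (kb, log axis), with the 6 genes in red. Longer genes tend to lie lower across the plot, and Bach2 lies at -4.24.

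Levels were then compared between the genes per kilobase of union exon, as CPM per kb. In Tespa1+/+ LSKs the order was Ikzf1 (28.6 ± 1.03), Bach1 (8.89 ± 0.709), Ikzf5 (5.40 ± 0.282), Ikzf2 (3.28 ± 0.401), Bach2 (1.19 ± 0.0594) and Ikzf3 (0.0942 ± 0.0120), each in CPM per kb with SD over 3 libraries. No neighbours in this order overlapped. In Tespa1-/- LSKs Ikzf1 still led at 10.6 ± 1.42 CPM per kb. Bach1 (6.29 ± 0.477 CPM per kb) and Ikzf5 (5.74 ± 0.423 CPM per kb) now overlapped, Ikzf2 followed at 1.36 ± 0.0873 CPM per kb, and Bach2 (0.0639 ± 0.0204 CPM per kb) had come down to the range of Ikzf3 (0.0647 ± 0.0491 CPM per kb). On the deposited FPKM scale, which uses another gene length, the order of the means was the same in Tespa1+/+ LSKs, but Ikzf1 (5.43 ± 0.731 FPKM) and Bach1 (5.37 ± 0.400 FPKM) overlapped in Tespa1-/- LSKs. Bach1 (4.92 to 5.68 FPKM) and Ikzf5 (3.04 to 3.51 FPKM) did not overlap in Tespa1-/- LSKs on that scale.

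The makeup of the Ikaros family shifted with these levels. The 4 Ikaros genes added up to 36.6, 39.0 and 36.5 CPM per kb in Tespa1+/+ and to 17.3, 16.5 and 19.5 CPM per kb in Tespa1-/- libraries. Ikzf1 made up 75.5% to 78.0% of this sum in Tespa1+/+ and 56.1% to 62.8% in Tespa1-/- libraries. Ikzf5, with its uncertain counts, took 13.9% to 15.1% in the former and 29.4% to 35.7% in the latter. The share of Ikzf2 was 7.84% to 9.37% in Tespa1+/+ and 7.49% to 7.92% in Tespa1-/- libraries. Ikzf1 exceeded Ikzf2 by 8.32, 8.12 and 9.94 times in Tespa1+/+ and by 7.40, 7.53 and 8.38 times in Tespa1-/- libraries, so the ratio of these 2 genes overlapped between the genotypes.

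**Figure D4:**
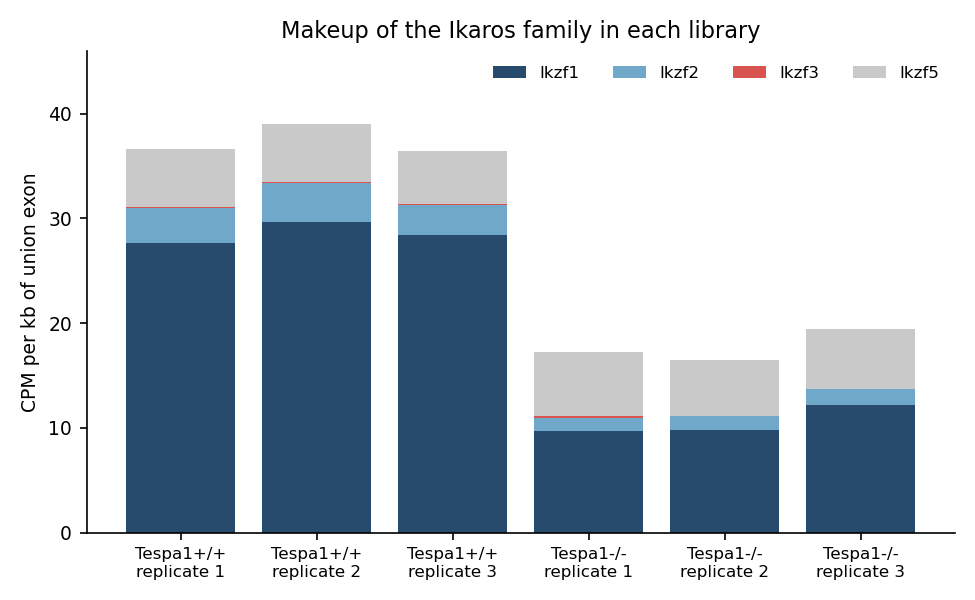
Stacked levels of the 4 Ikaros family genes (CPM per kb of union exon) in each of the 6 libraries. The Tespa1-/- bars reach 16.5 to 19.5 and the Tespa1+/+ bars 36.5 to 39.0, with most of the gap in the Ikzf1 segment.

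The genes whose pattern over the 6 libraries was most like that of Bach2 were found by the Euclidean distance in log2 CPM after the mean of each gene was subtracted, among 10820 genes with a mean count of at least 100. Myh10, a nonmuscle myosin heavy chain, was the nearest (distance 0.90, log2 fold change -3.61), and Podxl, a sialomucin of early progenitors (-3.23), Gimap6 (-3.0), Egr3 (-2.99), Kcng1 (-2.93) and Nr4a3 (-2.93) were also among the 10 nearest. The other 4 were Gm8210, Gm42664, Gm4759 and Gm45221. The pseudogenes among them, Gm4759 and Gm8210, may share reads with close copies, which makes their counts uncertain. All 10 were called lower, which the way they were found had fixed, with log2 fold changes between -4.11 and -2.81.

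Next, the proteins that Bach factors pair with and the genes they act on were examined. Of the 7 CNC and small Maf genes, 6 were tested. Among them, 1 was called lower and none higher, beside 19.2% and 14.0% of all genes tested. The lower gene was Maff (edgeR adjusted p 6.8e-05), at a log2 fold change of -0.73 (SE 0.07). The small Maf genes Mafk (-0.54) and Mafg (-0.05) were not called, nor were the CNC activators Nfe2l1 (-0.43) and Nfe2l2 (0.21). Nfe2 varied widely within a genotype, between 30.6 and 94.4 CPM in Tespa1-/- libraries. The median log2 fold change of these genes was -0.26, against 0.00 over all genes tested.

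Among genes of heme, iron and glutathione metabolism known as Bach1 targets, 11 of 12 were tested, 2 were called higher and none lower (median log2 fold change 0.12), against 14.0% higher and 19.2% lower over all genes tested. The higher genes were Slc7a11, a cystine transporter (1.60, SE 0.20, edgeR adjusted p 3.2e-04), and Ftl1, the ferritin light chain (0.70, SE 0.10, edgeR adjusted p 5.8e-04), and Ftl1 was not called with the length correction (0.38). With that correction Slc40a1, the iron exporter ferroportin, was called higher as well (0.82, edgeR adjusted p 5.1e-04) and Nqo1 was called lower (-0.59, edgeR adjusted p 0.0327), which made 2 higher and 1 lower. Hmox1, the classical Bach1 target that breaks down heme, was at 3.42 CPM in Tespa1+/+ and at 2.72 CPM in Tespa1-/- LSKs, with overlapping libraries (log2 fold change -0.31, SE 0.16).

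A list of 10 genes written around repression by Bach2 joined Prdm1, its direct target, with C/EBP factors, cell cycle inhibitors and myeloid genes. Of 9 tested, 2 were called higher and 2 lower, beside 14.0% and 19.2% of all genes tested, with a median log2 fold change of 0.33. Prdm1, the driver of plasma cell differentiation, was lower (-1.19, SE 0.39, edgeR adjusted p 0.0325) from 25, 27 and 11 counts in the Tespa1+/+ libraries and 10, 6 and 3 in the Tespa1-/- libraries, and with the length correction it was at -1.01 and not called (edgeR adjusted p 0.0631). Csf1r, the M-CSF receptor, was lower too (-0.65, edgeR adjusted p 2.3e-05) and was not called with the correction (-0.46). The higher genes were S100a8 (5.0) and S100a9 (7.07), which are also neutrophil markers. The C/EBP genes Cebpa (0.33), Cebpb (0.34) and Cebpd (0.34) stayed under the fold of 1.5. Cdkn2a had no count in any library.

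Of the lymphoid genes known as targets of Ikaros, all 12 were tested, and 7 were called lower and none higher, beside 19.2% and 14.0% of all genes tested. Their median log2 fold change was -0.87. The list was not split into genes that Ikaros activates and genes that it represses. These values therefore give no measure of Ikaros activity. Dntt, the terminal transferase of early lymphoid cells, fell from 151.1 to 31.8 CPM (edgeR adjusted p 3.3e-07), which is -2.25 (SE 0.05) on the log2 scale. The recombinase genes Rag1 (-2.97, SE 0.23) and Rag2 (-2.18, SE 0.30), the IL-7 receptor gene Il7r (-1.75, SE 0.18), Notch1 (-1.74, SE 0.04), Flt3 (-1.01, SE 0.03) and Igll1 (-0.73, SE 0.12) were lower as well. Vpreb1 (-0.43), Hes1 (-0.55), Ctla4 (-0.61), Cd79b (0.27) and Gfi1 (0.52) were not called. With the length correction 9 of 12 were called lower, beside 15.3% of all genes tested, as Vpreb1 and Hes1 were added.

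Of 21 other lymphoid transcription factors, 20 were tested and 15 were called lower, beside 19.2% of all genes tested. None was higher, and the median log2 fold change was -1.07. Pax5, the B cell commitment factor, fell from 8.98 to 1.71 CPM (-2.36, SE 0.38, edgeR adjusted p 0.00124), and its partner in early B cells, Ebf1, was lower by the same call (-1.37, SE 0.14). Gata3 (-1.94, SE 0.13), Lef1 (-1.46, SE 0.26) and Tcf7 (-1.22, SE 0.18) of the T lineage, and Satb1 (-1.44, SE 0.08) and Mef2c (-1.41, SE 0.12) of early lymphoid progenitors, were called lower too. The E protein genes Tcf3 (-0.47), Tcf4 (-0.41) and Tcf12 (-0.56), and Runx1 (-0.53) and Runx3 (-0.43), were not called. With the length correction 11 of 20 were called lower, against 15.3% of all genes tested under that correction, and the median was -0.74.

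The corepressors that Ikaros and Helios recruit were examined in turn. All 17 genes of the NuRD, CtBP and Sin3 complexes were tested. Of these, 1 was called lower and none higher, beside 19.2% and 14.0% of all genes tested. Their median log2 fold change was 0.00. The lower gene was Chd3, a NuRD remodeler (-1.02, SE 0.03, edgeR adjusted p 1.1e-06), whereas its paralog Chd4 was at -0.34 and the deacetylases Hdac1 and Hdac2 were at 0.13 and -0.01. Gatad2b (-1.0, SE 0.61) spread from 39.5 to 126.5 CPM within the Tespa1+/+ libraries and was not called. With the length correction Rbbp4 (0.59) and Sin3b (0.66) were called higher, beside 8.04% of all genes tested. A list of 9 genes held ubiquitin ligase parts that have been linked to Bach1 or Ikaros proteins. None was called, beside 19.2% lower and 14.0% higher over all genes tested. Their median was -0.14, with Crbn, the cereblon gene, at -0.53 and Fbxo22 at 0.30. With the correction Rbx1 (0.60) was called higher, beside the same 8.04%. Whether these parts degrade either protein in these cells was not tested.

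Among the remaining Ikaros-type genes, Ikzf4 (Eos) was too low to test, with 11, 26 and 7 counts in the Tespa1+/+ libraries and 5, 1 and 2 in the Tespa1-/- libraries. Trps1 was not called (-0.26, SE 0.12).

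**Figure D5:**
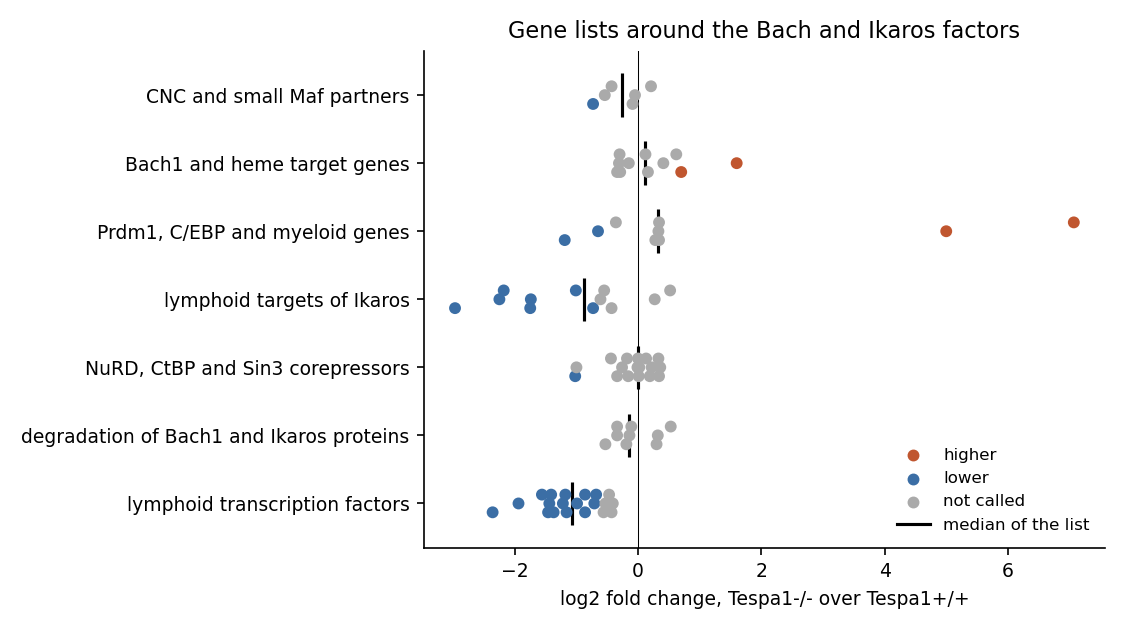
Log2 fold changes (Tespa1-/- over Tespa1+/+) of the tested genes in 7 lists, with 1 point per gene, colored by its call, and a line at the list median. The lymphoid lists center at -0.87 and -1.07, and the corepressor list at 0.00.

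Markers of the sorted cells and of neutrophils differed between the same libraries. Of 8 LSK markers, 6 were called lower and none higher, beside 19.2% and 14.0% of all genes tested. With the length correction 5 were called lower and none higher, beside 15.3% and 8.04%. The sum of the LSK markers was 1230 to 1273 CPM in Tespa1+/+ and 715 to 735 CPM in Tespa1-/- libraries. Kit was at 332.7 CPM in Tespa1+/+ and at 169.6 CPM in Tespa1-/- LSKs, and was called lower without (-0.97) but not with the length correction (-0.56), as was Cd34 (-0.77 and -0.46). Ly6a (Sca-1) was called lower only with the correction (-0.32 without and -0.67 with it). Of 12 neutrophil markers, 11 were tested and 10 were called higher, beside 14.0% of all genes tested. The primary granule genes Mpo, Elane and Prtn3, which granulocyte progenitors also express, made up nearly all of their summed level, with 9448 to 10150 CPM in Tespa1+/+ and 14917 to 15391 CPM in Tespa1-/- libraries, and Mpo was not called. The other 9 markers, a split made after their values were seen, summed to 20.9 to 23.7 CPM in Tespa1+/+ and 469.2 to 495.5 CPM in Tespa1-/- libraries, and all 8 of them that were tested were called higher. Ly6g had 0 counts in every Tespa1+/+ and 4 to 8 in each Tespa1-/- library. The part of either shift in the values of the Bach and Ikaros genes was not tested.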

How the data were processed

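RNA from LSKs was sequenced as stranded paired-end poly-A libraries, 3 per genotype. The authors deposited raw counts per gene (whole numbers, not normalized) and FPKM values, which scale each count by gene length and library total. Per the labels, CASAVA 1.8, HISAT2, StringTie and edgeR were used on build GRCm38, and the strand setting of the counting is not given in the sources used here. Groups and replicate numbers came from the sample titles, and age, dose and day from the study's text.

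Counts were filtered (filterByExpr), scaled (TMM) and tested with the edgeR 4.0.16 quasi-likelihood F-test in R 4.3.3, with no covariates and Benjamini-Hochberg adjustment over 15332 genes. A call needed both a fold over 1.5 and an adjusted p under 0.05. The SE was the log2 fold change divided by the square root of F. Union exon lengths came from GENCODE M21, in which 55141 of the 55487 genes were found. For the length correction, the deviation of each library was fitted on log length by robust loess (span 0.5) and used as an offset. FPKM values served only for levels and in limma 3.58.1 alternatives. DESeq2 1.42.0 was an alternative. The scripts were tested on simulated counts.

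The members, the lists and the named genes (the members, genes of the lists, genes overlapping a member and the 10 nearest to Bach2) were chosen with earlier results of these data known. Promoter windows came from RefSeq (GRCm38.p6), and 4 of 6 members had one. The result of 1 marker gene is not reported here. Same-numbered libraries of the genotypes were not paired by the labels. Counts of 3 or fewer are at the floor that a count of 0 allows, for counting error only.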

Additional observations from a re-analysis of the deposited data

How the results depend on the processing

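The values of the members kept their direction and their side of the call under the alternatives run, except for Bach1, Ikzf3 and Ikzf5. Over all alternatives that gave a value, the log2 fold change ranged from -4.42 to -3.68 for Bach2, from -1.54 to -1.15 for Ikzf1 and from -1.38 to -0.66 for Ikzf2. Bach1 passed the fold of 1.5 with total counts (-0.60) and with limma on log2(FPKM + 0.1) (-0.59). Ikzf5 turned to -0.02 with total counts and to -0.01 in both limma fits, and Ikzf3 to 0.01 with a least-squares length correction that was chosen after seeing the data. Bach2 and Ikzf3 were removed by a minimum of 10 counts in every library and by the FPKM filter of the limma fits, and have no value there. Genes called higher numbered 1020 with glmTreat against a fold of 1.5, 1373 with the length implied by FPKM, 1233 with the union exon length, 1070 with limma on log2(FPKM + 1) and 1365 with a pseudocount of 0.1, against 2148. Genes called lower numbered 1807 with glmTreat and 1626 with limma on log2(FPKM + 1), against 2951. Total counts gave 1491 higher and 3516 lower genes and a median log2 fold change of -0.10. Among genes of the lists other than cell type and sort markers, 4 were called higher and 26 lower, which became 7 higher with the union exon length, also by least squares, and 15 lower with limma on log2(FPKM + 1). glmTreat tests against the fold itself and the limma filter leaves fewer genes, and otherwise the cause was not tested. Leaving out 1 library at a time gave 2078 to 2246 higher and 2716 to 2885 lower genes. A replicate block gave 2101 higher and 2871 lower genes, and the members' calls did not change. The deviations of same-numbered libraries correlated at only 0.046, 0.011 and 0.060, and the labels name no pairing. With 3 libraries per group, such low values cannot exclude a pairing. Depth limits Ikzf3, Ikzf4 and Prdm1 and the Tespa1-/- values of Bach2, which rest on few counts.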

Other observations

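Of 8 B cell markers 5 were tested and 4 were called lower, beside 19.2% of all genes tested. Among the 4 was Blnk (log2 fold change -1.61, SE 0.14), while Cd79b was not called. The summed level of the B cell markers was 39.4 to 44.7 CPM in Tespa1+/+ and 36.0 to 36.6 CPM in Tespa1-/- libraries. Cd79b was the largest part of it, at 21.8 to 23.9 CPM in Tespa1+/+ and 26.4 to 28.4 CPM in Tespa1-/- libraries. The sum therefore says little about the 4 markers called lower. Of 9 T cell markers 5 were tested and 4 were called lower, beside the same 19.2%, with sums of 16.9 to 19.1 and 8.75 to 10.3 CPM. Cd3e, a CD3 gene of T cells, had 8, 7 and 4 counts in Tespa1+/+ and 0 in every Tespa1-/- library. The other CD3 genes did not fall in this way. Cd3d had 4, 4 and 0 counts in Tespa1+/+ and 1, 2 and 4 in Tespa1-/- libraries. Cd3g had 0, 5 and 0 counts and then 4, 3 and 0. These CD3 genes were too low to test. Ms4a1 (CD20) had 2, 0 and 3 counts in Tespa1+/+ and 0 in every Tespa1-/- library. Itgam, a myeloid marker of the lineage sort, was not called (-0.57, SE 0.31).

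Of 6 plasma cell markers tested, Jchain (1.18, SE 0.20) and Derl3 (0.98, SE 0.28) were called higher and Sdc1 (-0.89, SE 0.09) lower. Derl3, with 18 to 39 counts per library, was not called with the length correction (0.74). Jchain (1.01) and Sdc1 (-0.90) kept their calls with it. Over all genes tested, 14.0% were called higher and 19.2% lower, which also stands beside the counts that follow. Of 4 megakaryocyte markers tested, Gp1bb (-1.01, SE 0.32) was called lower, and Gp6 had no count in any library. Of 5 macrophage and dendritic cell markers tested, Csf1r alone was called, and Cst3 was at 0.40 (SE 0.03).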
